A study of Mus musculus with 6 samples.

Results

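Mast cell genes were examined in the colon of NHE3-deficient mice and wild-type littermates. NHE3, the product of Slc9a3, exchanges sodium for protons at the luminal membrane of gut epithelium. The genes are 9 in number: the proteases Mcpt1, Mcpt2, Mcpt4, Cma1, Tpsb2 and Cpa3, the IgE receptor chains Fcer1a and Ms4a2, and the histamine-forming enzyme Hdc. They were chosen by name, and every probe set whose platform annotation names one of them and no other gene was taken. That gave 12 of the 45101 probe sets of the Affymetrix MOE430 2.0 array, with 2 each for Tpsb2, Ms4a2 and Hdc and 1 for each of the other 6 genes. The samples were 3 arrays of NHE3-/- colon and 3 arrays of NHE3+/+ colon, all from mice of 6 to 8 weeks with no treatment named. The labels name no tissue-specific driver of the mutation, and the disrupted part of the gene, the strain, the sex and the number of mice per array are not given in the sources used here. Whether the arrays of a genotype came from different animals is not stated, and the p-values therefore reflect only the array-to-array spread, which could be technical.

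Mast cells are tissue-resident granulocytes that carry IgE on a surface receptor and release histamine, proteases and lipid mediators when antigen cross-links it. In the mouse, mast cells inside the gut mucosa store mainly the chymases encoded by Mcpt1 and Mcpt2, whereas those of connective tissue, submucosa and serosa store the chymases of Mcpt4 and Cma1, the tryptase of Tpsb2 and the carboxypeptidase of Cpa3. Mucosal mast cells increase during intestinal nematode infection, and mouse mast cell cultures produce the Mcpt1 protease in response to transforming growth factor beta.

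The 2 proteases of mucosal mast cells were higher in NHE3-/- colon, and no other mast cell gene of the 9 passed the test in either direction. Mcpt1, a chymase released into blood and gut lumen during worm expulsion, had signals of 1127.8, 1165.8 and 581.6 on the 3 NHE3-/- arrays, against 104.7, 167.6 and 72.6 on the 3 NHE3+/+ arrays. Every NHE3-/- array lay above every NHE3+/+ array, with array 3 the lowest in both genotypes. The means were 958 ± 327 in NHE3-/- and 115 ± 48.3 in NHE3+/+ colon (SD, n = 3 each), 8.34 times as high in NHE3-/- colon. On the log2(signal + 31.4) scale, where changes of dim transcripts appear smaller than they are, the log2 fold change was 2.75 (SE 0.30; limma with Benjamini-Hochberg adjustment, adjusted p = 0.000261).

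Mcpt2, a chymase-related protease of the same mucosal granules, had signals of 536.9, 786.3 and 660.5 in NHE3-/- colon, against 147.1, 174.5 and 122.3 in NHE3+/+ colon. The lowest NHE3-/- array was again above the highest NHE3+/+ array, and here array 2 was the highest in both genotypes. Means were 661 ± 125 in NHE3-/- and 148 ± 26.1 in NHE3+/+ colon (SD, n = 3 each), a 4.47-fold difference. The log2 fold change was 1.94 (SE 0.20; limma, adjusted p = 0.000209). For both genes each of the 6 signals exceeded 60.2, the signal that corresponds to the brightness filter, so their passing the filter did not rest on the NHE3-/- arrays.

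The background of the comparison was high. Of 27024 probe sets tested, 4.97% were called higher and 6.24% lower in NHE3-/- colon at an adjusted p under 0.05. Only 4 of the 12 mast cell probe sets were bright enough to be tested: those of Mcpt1, Mcpt2, Cma1 and Cpa3. With no filter, where all 12 could be tested, the same 2 probe sets were called higher and 0 lower, and 2 had an unadjusted p under 0.05. In that fit 2.39% of 45037 probe sets were called higher, 2.5% lower and 4.89% in either direction, and 19% had an unadjusted p under 0.05. The median log2 fold change over all 12 mast cell probe sets was 0.64, with 10 positive and 2 negative values, against a median of -0.06 over all 45037. Transcript per cell and number of cells cannot be told apart in whole colon: more mast cells, and more protease RNA in each of them, would both raise these signals.

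**Figure D1:**
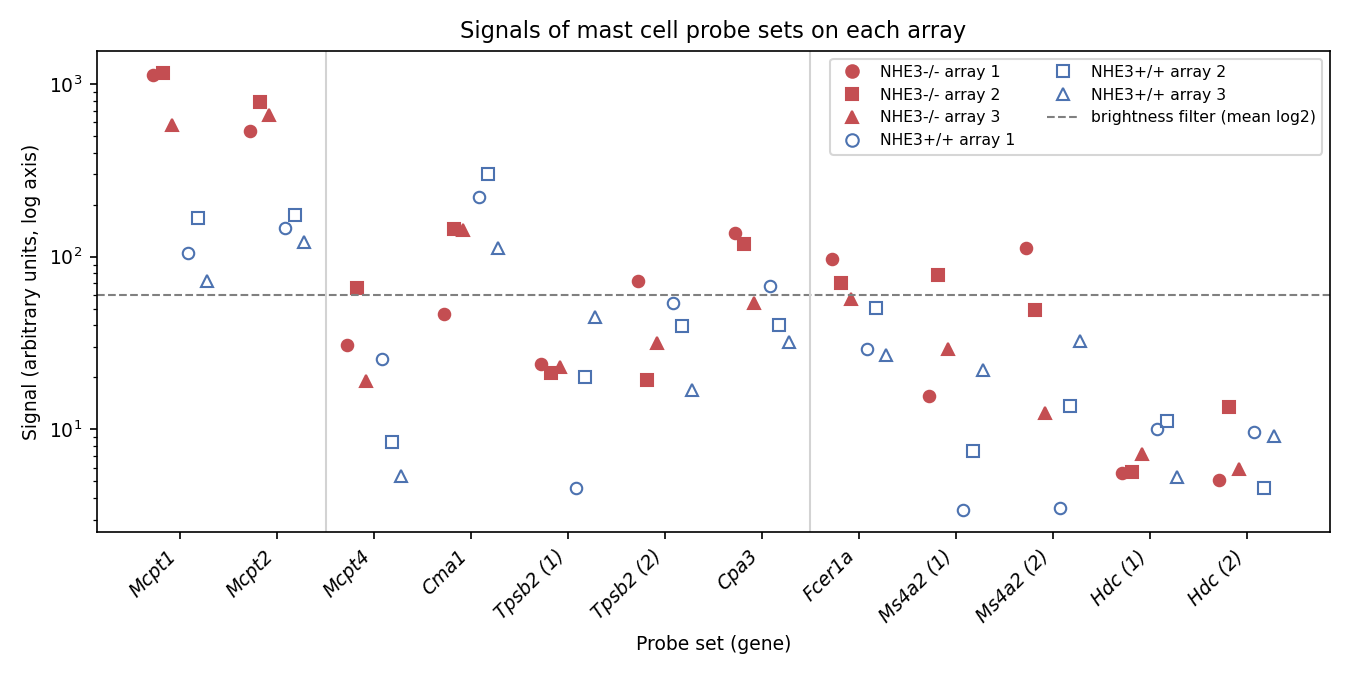
Signal of each mast cell probe set (log axis, arbitrary units) on the 3 NHE3-/- arrays (filled symbols, left in each column) and the 3 NHE3+/+ arrays (open symbols, right), with the brightness filter as a dashed line at 60.2 and grey lines between mucosal proteases, connective-tissue genes, and receptor and histamine genes. The genotypes are apart for Mcpt1 and Mcpt2 and, lower down, for Fcer1a, and overlap for the other 9 probe sets.

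None of the 4 genes typical of connective-tissue mast cells was called in either direction, with or without the filter. Cma1, the chymase also known as Mcpt5, had signals of 46.7, 145 and 142 in NHE3-/- colon, against 222.3, 303 and 113 in NHE3+/+ colon. NHE3+/+ array 3 lay below NHE3-/- arrays 2 and 3, so the genotypes overlapped. Means were 111 ± 55.9 in NHE3-/- and 213 ± 95.4 in NHE3+/+ colon (SD, n = 3 each), with a log2 fold change of -0.79 (SE 0.39; limma, adjusted p = 0.214).

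Cpa3, the mast cell carboxypeptidase that trims peptides after chymase cleavage, had signals of 136.4, 119 and 54.2 in NHE3-/- colon, against 68.1, 40 and 32.2 in NHE3+/+ colon. NHE3-/- arrays 1 and 2 were above all NHE3+/+ arrays, while NHE3-/- array 3 was below NHE3+/+ array 1. Its log2 fold change was 0.75 (SE 0.36; limma, adjusted p = 0.204), so a difference beyond the spread between arrays was not shown. The NHE3+/+ mean of 46.8 ± 18.9 was under the filter signal and the NHE3-/- mean of 103 ± 43.3 above it (SD, n = 3 each).

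Mcpt4, the chymase of connective-tissue mast cells that degrades several matrix and inflammatory peptides, was below the filter. Its signals were 30.8, 65.5 and 19.1 in NHE3-/- colon, against 25.4, 8.5 and 5.4 in NHE3+/+ colon, with NHE3-/- array 3 below NHE3+/+ array 1. The log2 fold change was 0.62 (SE 0.33 without a filter; limma, adjusted p = 0.344). Tpsb2, the tryptase stored in complex with heparin, was also below the filter by both of its probe sets. The brighter gave 72.2, 19.4 and 31.6 in NHE3-/- colon, against 53.6, 39.8 and 16.9 in NHE3+/+ colon, and the dimmer gave 23.9, 21.1 and 23 in NHE3-/- colon, against 4.6, 20.2 and 44.9 in NHE3+/+ colon. Both had log2 fold changes near 0, of 0.06 and 0.05.

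For both Tpsb2 probe sets the range within NHE3+/+ colon was wider than the difference between the genotype means, and no detection calls were used here to tell such low signals from background. Mcpt1, Mcpt2, Mcpt4 and Cma1 are related genes of 1 cluster on chromosome 14. Probe sequences were not used here, so shared hybridisation between them was not tested.

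The window around the gene start is shown for Mcpt1, whose signal differed between genotypes, and for its neighbours Mcpt4 and Cma1, which were not called. Each holds 250 bases before the start and 50 after it, from RefSeq on GRCm38.p6, read along the strand of the gene, and capitals mark matches on either strand to the GATAA motif or to the sequence TATAAA. Mcpt1 is chr14:56017714-56018013 on the plus strand, Mcpt4 is chr14:56062261-56062560 on the minus strand and Cma1 is chr14:55944626-55944925 on the minus strand.
Mcpt1: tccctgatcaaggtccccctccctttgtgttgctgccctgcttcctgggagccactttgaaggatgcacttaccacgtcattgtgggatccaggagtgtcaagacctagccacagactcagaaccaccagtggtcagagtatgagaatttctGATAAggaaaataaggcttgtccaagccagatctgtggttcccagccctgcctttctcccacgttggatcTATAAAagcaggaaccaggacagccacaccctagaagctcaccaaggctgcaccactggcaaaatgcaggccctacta
Mcpt4: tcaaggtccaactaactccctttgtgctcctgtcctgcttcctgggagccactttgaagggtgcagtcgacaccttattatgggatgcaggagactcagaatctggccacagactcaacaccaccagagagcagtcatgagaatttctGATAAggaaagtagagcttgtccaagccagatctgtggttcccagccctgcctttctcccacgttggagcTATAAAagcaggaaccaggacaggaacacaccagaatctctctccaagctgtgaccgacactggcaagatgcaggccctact
Cma1: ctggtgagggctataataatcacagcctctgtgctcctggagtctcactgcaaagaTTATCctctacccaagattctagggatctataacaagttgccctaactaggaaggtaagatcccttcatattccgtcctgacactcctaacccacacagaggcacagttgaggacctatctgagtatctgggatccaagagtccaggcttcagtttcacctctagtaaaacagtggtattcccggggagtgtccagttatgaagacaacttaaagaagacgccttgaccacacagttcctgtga

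The Mcpt1 and Mcpt4 windows were identical at 254 of 312 columns of a global alignment, or 81.4%, whereas Mcpt1 and Cma1 shared 51.5% of their columns. GATAA, the core bound by GATA factors such as the mast cell regulator GATA2, began 98 bases before the start of Mcpt1 and 102 before that of Mcpt4. TATAAA, the TATA box core, began 28 bases before the start of Mcpt1 and 32 before that of Mcpt4, and was not in the Cma1 window. The other motifs searched were the E-box CANNTG, bound by MITF and other helix-loop-helix factors, and the SMAD core CAGAC. All 4 were searched on both strands, and overlapping matches of different motifs were counted separately. Windows were at hand for 7 of the 9 genes, namely Mcpt1, Mcpt4, Cma1, Cpa3, Fcer1a, Ms4a2 and Hdc. GATAA was in 6 of these 7, and in 25.4% of all 32851 windows of this length. The TATA box core was in 4 of 7, against 13.6% of all windows. The E-box was in 4 of 7, against 72.3%, and the SMAD core in 3 of 7, against 49.6%. Mcpt1 and Mcpt4 did not differ in which of the 4 motifs they held.

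Set side by side on each array, the mean of the mucosal proteases separated by genotype and that of the connective-tissue genes did not. Over Mcpt1 and Mcpt2 the mean log2 value was 9.66, 9.95 and 9.35 on the NHE3-/- arrays, against 7.28, 7.66 and 6.98 on the NHE3+/+ arrays. Over Mcpt4, Cma1, Tpsb2 (brighter probe set) and Cpa3 it was 6.58, 6.74 and 6.37 on the NHE3-/- arrays, against 6.72, 6.50 and 5.99 on the NHE3+/+ arrays. The mucosal mean lay apart between the genotypes and the connective-tissue mean overlapped. Mcpt4 and Tpsb2 in the latter were below the filter, and changes of dim transcripts appear smaller on this scale. The mucosal minus connective-tissue difference was 3.09 ± 0.118 in NHE3-/- and 0.91 ± 0.303 in NHE3+/+ colon (SD, n = 3 each), 2.18 higher in NHE3-/- colon on the log2 scale. These genes were picked with earlier results of the same arrays known, so this difference is a description and has no test.

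The connective-tissue mean was made of unlike parts: Cma1 was lower on average in NHE3-/- colon, Cpa3 and Mcpt4 were higher on average, and none of them was called. On the linear scale the ratio of the NHE3-/- mean to the NHE3+/+ mean was 8.34 for Mcpt1 and 4.47 for Mcpt2. It was 2.94 for Mcpt4, 2.21 for Cpa3, 1.12 for the brighter Tpsb2 probe set and 0.52 for Cma1. The log2 value of Mcpt1 minus that of Cma1 was 2.83 ± 1.04 in NHE3-/- and -0.71 ± 0.216 in NHE3+/+ colon (SD, n = 3 each). Each probe set has its own brightness, so the change of this quantity between genotypes and not its level can be read.

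**Figure D2:**
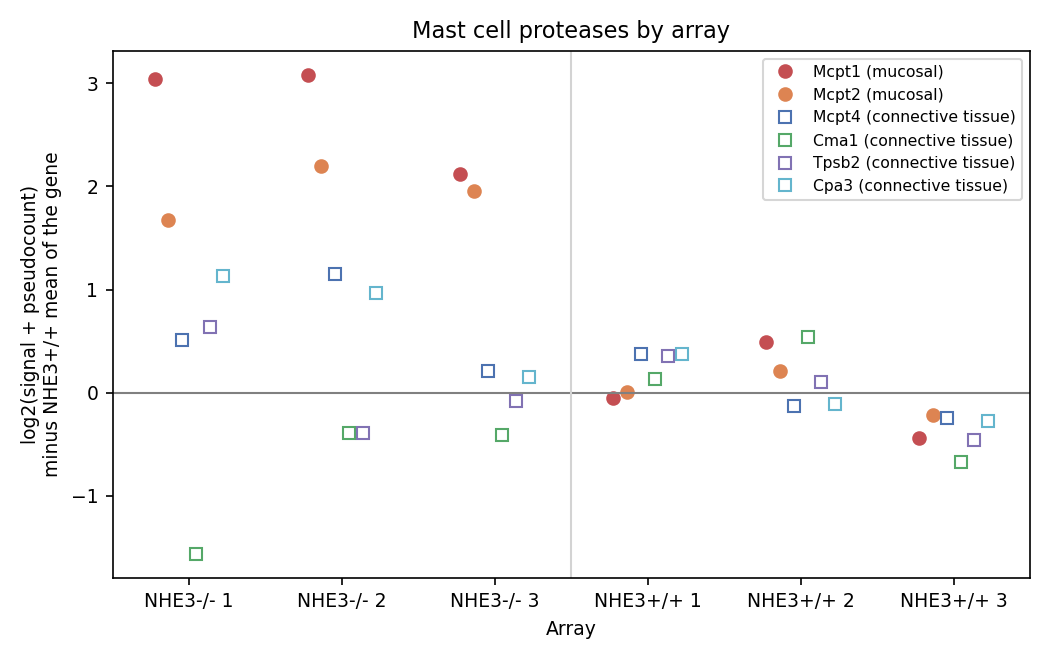
Value of each protease gene on each array, as log2(signal + 31.4) minus the gene's mean over NHE3+/+ arrays, with filled circles for the mucosal proteases, open squares for the connective-tissue genes and the zero line at the NHE3+/+ mean. Mcpt1 and Mcpt2 lie well above 0 on all 3 NHE3-/- arrays. Cpa3 and Mcpt4 also lie above 0 there, by less, while Cma1 lies below 0 and Tpsb2 lies on both sides.

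The genes of the high-affinity IgE receptor were dim. Fcer1a, the alpha chain that binds IgE, had signals of 97.2, 70.8 and 56.9 in NHE3-/- colon, against 29.1, 50.7 and 27 in NHE3+/+ colon. Each NHE3-/- value was above each NHE3+/+ value, and the NHE3-/- mean was 2.11 times as high on the linear scale. Its mean log2 signal was nonetheless below the filter, and without a filter the log2 fold change of 0.67 (SE 0.34) was not called (limma, adjusted p = 0.325). Such a separation was found for 3 of the 12 mast cell probe sets in the upward direction and 0 in the downward one, against 9.64% and 14.2% of the 45037 probe sets.

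Ms4a2, the beta chain that amplifies receptor signalling, was read by 2 probe sets that ordered the NHE3-/- arrays differently. One gave 15.6, 78.3 and 29.1 in NHE3-/- colon, against 3.4, 7.5 and 22 in NHE3+/+ colon, and the other gave 112, 49.4 and 12.4 in NHE3-/- colon, against 3.5, 13.6 and 32.6 in NHE3+/+ colon. Array 2 was highest by the first and array 1 by the second. On the linear scale the NHE3-/- mean was 3.74 times as high by the first and 3.50 times by the second. Both probe sets had positive log2 fold changes, 0.70 (SE 0.35) and 0.78 (SE 0.44), with adjusted p = 0.319 and 0.382 in the limma fit without a filter. Hdc, histidine decarboxylase, the enzyme that makes histamine, gave signals between 5.1 and 13.4 in NHE3-/- colon and between 4.6 and 11.2 in NHE3+/+ colon over its 2 probe sets. Its log2 fold changes were -0.10 and 0.01, and at these signals a difference was not detectable.

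**Figure D3:**
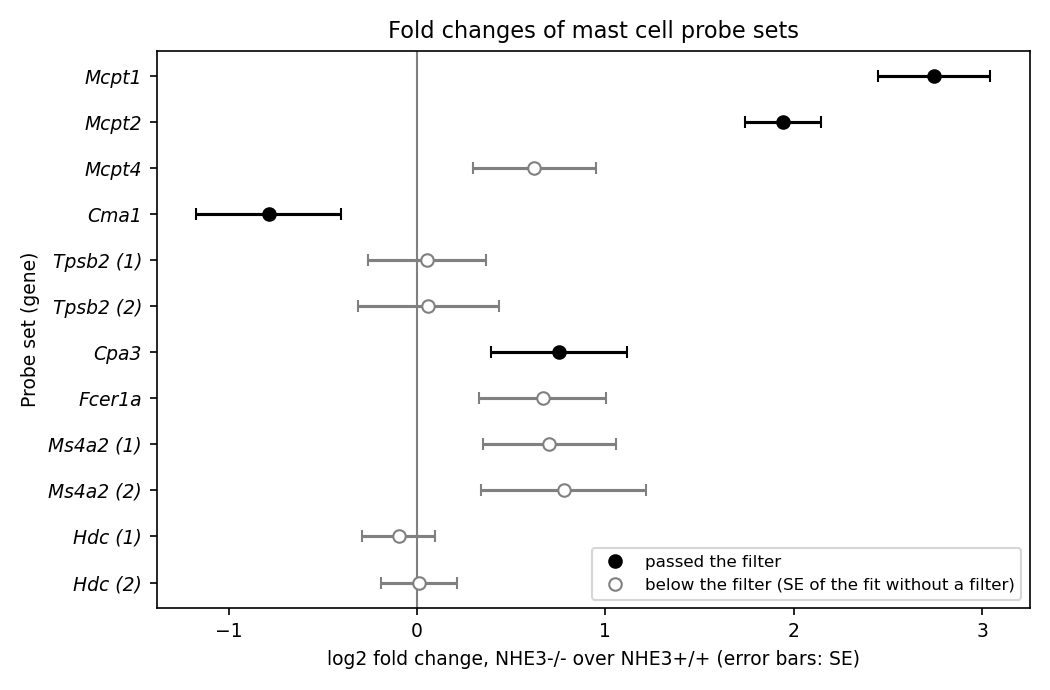
Log2 fold change of NHE3-/- over NHE3+/+ colon for each mast cell probe set, with bars of 1 SE, filled where the probe set passed the brightness filter and open where it did not. Mcpt1 at 2.75 and Mcpt2 at 1.94 stand clear of 0 by many SE, and Cma1 at -0.79 is the lowest.

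Beyond the 9 genes, a list of 20 further mast cell granule and surface genes was read. Of the 14 on the array, 9 were tested, 1 was higher, 2 were lower and 6 were not called, beside 11.2% of all tested probe sets called in either direction. The median log2 fold change of these 9 was -0.15, against -0.10 over all tested probe sets. Slc6a4, the serotonin transporter, which gut epithelium also makes, had signals of 518.5, 536.1 and 706.9 in NHE3-/- colon, against 164.8, 195.1 and 168.9 in NHE3+/+ colon (log2 fold change 1.56, SE 0.18; limma, adjusted p = 0.000498). Kit, the stem cell factor receptor on which mast cells depend, was lower, at 595, 617.8 and 432.3 in NHE3-/- colon, against 1389.9, 938.2 and 1320.5 in NHE3+/+ colon (log2 fold change -1.10, SE 0.18; limma, adjusted p = 0.00408). Kit also marks the interstitial cells of Cajal, the pacemakers of gut muscle, whose channel gene Ano1 had a log2 fold change of 0.06 (limma, adjusted p = 0.8). Tpsg1, the membrane-anchored tryptase gamma, was lower too, at -0.85 (SE 0.17; limma, adjusted p = 0.01). These are signals of whole colon, and which cells gave those of Slc6a4, Kit, Ano1 and Tpsg1 was not tested.

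For Slc6a4, Kit and Tpsg1, named because they were called, the genotypes did not overlap. Of all 45037 probe sets, 9.64% were apart in the upward direction and 14.2% in the downward one. Gata2 and Mitf, transcription factors required for the mast cell lineage, had log2 fold changes of 0.04 and -0.24 and were not called, and Srgn, the proteoglycan core that holds granule proteases, had -0.19.

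Of 14 genes that carry the IgE receptor signal, 13 were on the array and 11 were tested. Syk was higher, Plcg2 was lower and the other 9 did not pass, beside 4.97% of all tested probe sets called higher and 6.24% lower. The median log2 fold change of the 11 was -0.28, against -0.10 over all tested probe sets. Syk, the kinase recruited by the receptor, gave 2783.7, 2295.7 and 2305.2 in NHE3-/- colon, against 1136.7, 1093.1 and 1524.5 in NHE3+/+ colon (log2 fold change 0.97, SE 0.15; limma, adjusted p = 0.00234). Plcg2, a phospholipase downstream of it, gave 364.8, 311.8 and 217.7 in NHE3-/- colon, against 615.1, 761.4 and 617.6 in NHE3+/+ colon (-1.10, SE 0.20; limma, adjusted p = 0.00578). Neither pair of groups overlapped, beside 9.64% of all 45037 probe sets apart in the upward direction and 14.2% in the downward one. Every signal of Syk and Plcg2 was above 112, the highest signal of the receptor chains Fcer1a and Ms4a2. Each probe set has its own brightness, so these levels cannot be compared between genes. Which cells of the colon gave the Syk and Plcg2 signals was not tested. Fcer1g, the signalling chain that the IgE receptor shares with other Fc receptors, had a log2 fold change of 0.99 (SE 0.35; limma, adjusted p = 0.099), with NHE3-/- signals of 109.3, 122 and 165.9 above NHE3+/+ signals of 99.6, 26 and 41.6. Without NHE3+/+ array 1 the number of genes higher in this list was 2.

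Among 13 genes of histamine and eicosanoid handling, 7 of the 12 on the array were tested and 0 were called, with 1 lower in the limma fit without a filter and 1, 1 and 2 lower without NHE3-/- arrays 1, 2 and 3 in turn. At an unadjusted p under 0.05 in the fit with the filter, 2 of the 7 tested genes were lower and 0 higher. The share was 19% of all 45037 probe sets in the fit without a filter, a base that includes dim probe sets. The median was -0.45, against -0.10 over all tested probe sets, of which 11.2% were called in either direction. Hrh2, a histamine receptor, gave 14.9, 21 and 70.3 in NHE3-/- colon, against 163, 95.7 and 98.1 in NHE3+/+ colon, a log2 fold change of -1.23 that did not pass (SE 0.38; limma, adjusted p = 0.0624).

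Of 28 genes for growth, homing and mucosal maturation of mast cells, all on the array, 17 were tested. None was higher and 4 were lower, beside 4.97% of all tested probe sets called higher and 6.24% lower. The median was -0.24, against -0.10 over all tested probe sets. Kitl, the stem cell factor that binds Kit, gave 1955.2, 1949.5 and 2014.5 in NHE3-/- colon, against 2742.1, 2882.7 and 2706.3 in NHE3+/+ colon (log2 fold change -0.49, SE 0.10; limma, adjusted p = 0.0113). Tgfbr1, a receptor for transforming growth factor beta, had -0.52, and Jag1 and Notch2, a ligand and a receptor of the Notch pathway, had -0.72 and -0.92 (limma, adjusted p = 0.0279, 0.0162 and 0.0388). The genotypes did not overlap for any of these 4, which were named because they were called. Of all 45037 probe sets, 14.2% were apart in that direction. At an unadjusted p under 0.05 in the fit with the filter, 4 of the 17 tested genes were higher and 5 lower. In the fit without a filter, 19% of all 45037 probe sets had such a p in either direction. That share includes dim probe sets and is not on the same base. Without a variance trend none of the 4 lower genes was called (adjusted p = 0.074 for Kitl, 0.0823 for Tgfbr1, 0.0582 for Jag1 and 0.0855 for Notch2). With medians set equal on all arrays 0 were lower and 2 were higher, and with quantile normalization 2 were lower and 1 higher. Leaving out 1 array gave 1 lower gene without NHE3+/+ array 3 and 2 without NHE3+/+ array 1 or 2 or NHE3-/- array 2 or 3, and 1 gene was higher without NHE3-/- array 2 or 3. Itgb6, a subunit of the integrin that activates transforming growth factor beta at epithelia, gave 1600.3, 1292.6 and 856.8 in NHE3-/- colon, against 740.7, 925 and 660.6 in NHE3+/+ colon and was not called (0.64, SE 0.21; limma, adjusted p = 0.0773). Il4, Il9, Il13 and Il33, cytokines that drive or support mast cells, had signals no higher than 115.1 on any array. Of these 4, Il4 alone passed the filter, and it was not called (0.15; limma, adjusted p = 0.782).

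**Figure D4:**
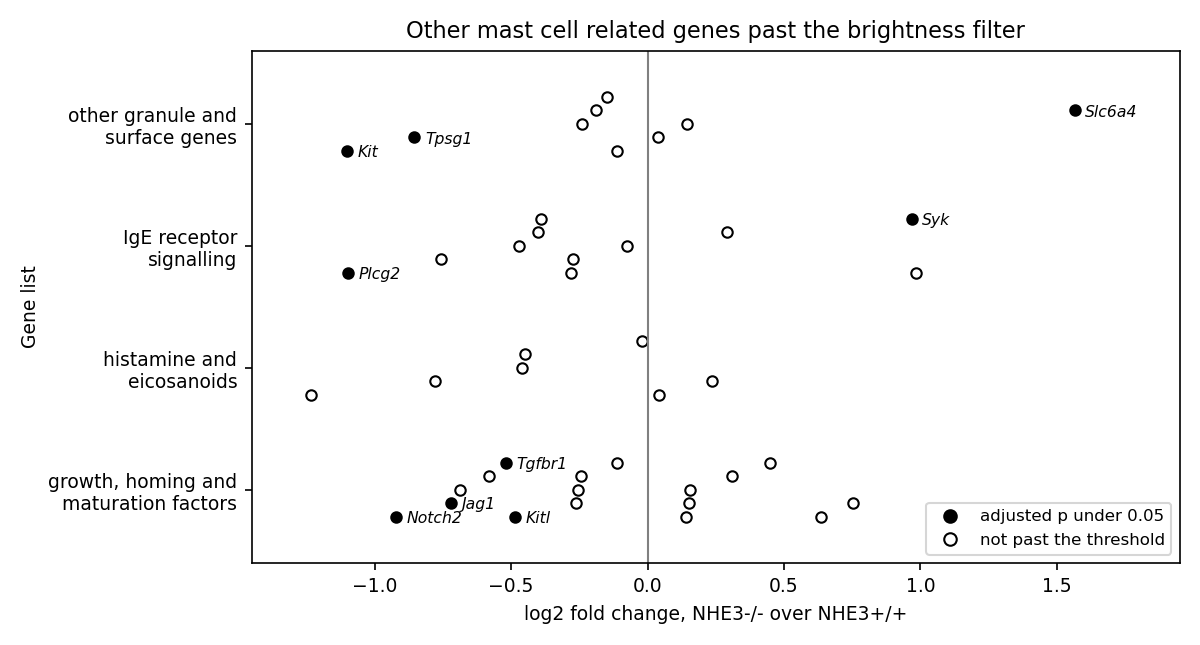
Log2 fold change of NHE3-/- over NHE3+/+ colon for the genes past the brightness filter in 4 lists, 1 point per gene, with filled points for an adjusted p under 0.05. Slc6a4 and Syk are the called genes on the right and Kit, Tpsg1, Plcg2, Kitl, Tgfbr1, Jag1 and Notch2 those on the left.

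The genes whose log2 signal followed that of Mcpt1 most closely over the 6 arrays were Ces2f (Pearson r = 0.994), Me2 (0.990), Sys1 (0.989), Frmd3 (0.987) and Cwh43 (0.986). These coefficients are over 6 arrays in 2 groups that differ in Mcpt1, so a difference between genotypes alone makes them high. Ces2f, a carboxylesterase, gave 599.8, 477.5 and 307.8 in NHE3-/- colon, against 35.9, 47.7 and 10.4 in NHE3+/+ colon. Mcpt2 stood at place 75 of 12553 genes (r = 0.961), and like Mcpt1 it was high on every NHE3-/- array, but the order of the 3 NHE3-/- arrays differed between the 2 proteases.

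Markers of other cells were read beside the proteases, and their part in the results was not tested. Of all tested probe sets 4.97% were called higher and 6.24% lower, shares that stand beside every marker count that follows. In 3 of the marker lists, those of neutrophils, macrophages and cytotoxic lymphocytes, 1 gene set the summed signal of the NHE3-/- arrays apart. Neutrophil markers summed to between 963 and 3347 on the NHE3-/- arrays, against 204 to 382 on the NHE3+/+ arrays, with 1 of 2 tested genes called. That gene was S100a8, which stressed epithelium also makes (log2 fold change 4.20, SE 0.39; limma, adjusted p = 0.000116). The other 6 neutrophil genes summed to 246 to 434 in NHE3-/- and 163 to 335 in NHE3+/+ colon and overlapped. Their log2 fold changes were 0.86 for S100a9, 0.38 for Elane, 0.06 for Camp, -0.03 for Ngp, -0.03 for Cxcr2 and -0.31 for Mpo. Ngp alone of them passed the filter, and it was not called. Every NHE3-/- signal of S100a9 lay above every NHE3+/+ signal, as for 9.64% of all 45037 probe sets. Without a filter S100a9 was not called (limma, adjusted p = 0.24). Macrophage markers summed to 4410 to 6591 on the NHE3-/- arrays, against 2510 to 3400 on the NHE3+/+ arrays, and Cd14 was the 1 gene called among 5 (1.51; limma, adjusted p = 0.000204). Without Cd14 the sums overlapped, at 1186 to 1578 in NHE3-/- and 1147 to 2032 in NHE3+/+ colon, and Csf1r, Cd68 and C1qa had log2 fold changes of -0.13, -0.32 and -0.18. Adgre1 went the other way, at 0.46, and was not called (limma, adjusted p = 0.323). Cytotoxic lymphocyte markers summed to 1903 to 2431 on the NHE3-/- arrays, against 1192 to 1695 on the NHE3+/+ arrays, and Gzma was the 1 gene called among 6 (1.31; limma, adjusted p = 0.000908). Without Gzma these sums too overlapped, at 925 to 1060 in NHE3-/- and 783 to 1151 in NHE3+/+ colon.

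Adipose markers summed to 1176 to 2050 in NHE3-/- colon, against 4111 to 9597 in NHE3+/+ colon. All 4 tested adipose genes were lower, and the 3 with the largest changes were Car3 (log2 fold change -2.42), Fabp4 (-2.08) and Adipoq (-1.77), with adjusted p = 0.0136, 0.0293 and 0.0484 by limma. The count was 1 without a variance trend or without NHE3+/+ array 2, and 2 without a filter or without NHE3+/+ array 1 or NHE3-/- array 1 or 3. Lpl, the remaining one, was called in all of these fits. Basophil, eosinophil, smooth muscle and fibroblast markers had 0 called by limma of 1, 1, 6 and 6 tested, and 0 with an unadjusted p under 0.05. The basophil protease Mcpt8 and the eosinophil genes Epx and Prg2 were below the filter. Of 7 small-intestinal markers 3 were higher and 0 lower: Rbp2 (1.75), Apoa1 (1.67) and Slc5a1 (0.76), with adjusted p = 0.000436, 0.0276 and 0.00124 by limma. The 4 not called went both ways: Apoa4 (1.06), Fabp6 (1.01), Lct (-0.22) and Fabp2 (-0.30). Apoa1 was not called without a variance trend (adjusted p = 0.114), with NHE3-/- array 3 alone (adjusted p = 0.122), or without NHE3-/- array 2 or 3 or NHE3+/+ array 2 (adjusted p = 0.0726, 0.0793 and 0.0802).

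Median signals were 97.7 to 103.8 on the NHE3-/- arrays and 99.6 to 121.3 on the NHE3+/+ arrays. All 9 colon epithelial markers on the array passed the filter, with 2 higher, 1 lower and 6 not called. Slc26a3, a chloride-bicarbonate exchanger, had a log2 fold change of 0.72, Vil1, which encodes the microvillus protein villin, 0.41, and Cdx2, an intestinal transcription factor, -0.58 (limma, adjusted p = 0.00535, 0.0203 and 0.0191). None of these 3 was called without a variance trend, and Cdx2 was not called with medians set equal (-0.46, adjusted p = 0.0926) nor Vil1 with quantile normalization (0.25, adjusted p = 0.0843). Leaving out NHE3-/- array 3 or NHE3+/+ array 2 ended the calls of both Cdx2 and Vil1, leaving out NHE3+/+ array 3 that of Cdx2, and leaving out array 1 of either genotype that of Vil1, with adjusted p between 0.0573 and 0.069. Slc9a3 itself gave 5970.4, 4265.6 and 3665.3 in NHE3-/- colon, against 5908.3, 5647.4 and 6668.7 in NHE3+/+ colon by its brighter probe set, and did not pass (log2 fold change -0.42; limma, adjusted p = 0.12; -0.61 with adjusted p = 0.0199 without NHE3-/- array 1). The dimmer Slc9a3 probe set gave 473.4, 608.7 and 264.9 in NHE3-/- colon, against 345.6, 344.8 and 107.8 in NHE3+/+ colon. It was not called either (log2 fold change 0.76; limma, adjusted p = 0.23). Where the 2 probe sets lie relative to the disrupted part of the gene is not known here, so they do not check the genotype. Xist, the RNA of the inactive X chromosome in females, had signals of 1562 and 1404 on NHE3-/- arrays 1 and 2 by its brightest probe set, 80.8 on NHE3-/- array 3 and 142 to 208 on the NHE3+/+ arrays. RNA of the Y chromosome was read on every array: Eif2s3y gave 932.6, 1088.1 and 1355.4 in NHE3-/- colon, against 1434.3, 1457.2 and 1808.9 in NHE3+/+ colon, Kdm5d gave 341.3, 405.5 and 732.9 in NHE3-/- colon, against 768, 654.2 and 783.6 in NHE3+/+ colon, and Uty gave 338.9, 316.8 and 450.6 in NHE3-/- colon, against 240.6, 430 and 325.9 in NHE3+/+ colon. NHE3-/- arrays 1 and 2 thus had both high Xist signals and Y-linked signals, and the sex of the mice behind them is not given in the sources used here. With NHE3-/- array 3 alone against NHE3+/+, a fit whose spread comes from the NHE3+/+ arrays alone, Mcpt1 had a log2 fold change of 2.12 (adjusted p = 0.0154) and Mcpt2 of 1.96 (adjusted p = 0.0077).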

How the data were processed

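The deposited values were intensity values on a linear scale, 1 per probe set and array, made with GCOS per the submitters' processing notes, which name no version. Its settings and any detection calls are not given in the sources used here. Trimmed means showed a global scaling by the authors to a mean of 500 after 2% was trimmed from each end. From them log2(signal + 31.4) was computed, 31.4 being the 25th percentile of all values. The 64 array controls were dropped, as were probe sets whose mean log2 value fell below the 40th percentile. Genotype was fitted with limma 3.58.1 in R 4.3.3 (lmFit, eBayes with a mean-variance trend, two-sided), with p-values adjusted by Benjamini-Hochberg over all 27024 probe sets tested and a threshold of 0.05. The code was tested on simulated data. Gene names came from the platform annotation, updated to RefSeq symbols through gene IDs (34754 of 34958 probe sets with 1 gene matched). In lists each gene counted once, through its brightest probe set by mean log2 value. Precision is limited by the number of arrays.

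The 9 genes and all lists were chosen with earlier results of these data known. The text names every one of the 9 genes, Slc9a3, list genes past the threshold (up to 5 in each direction, or 3 for markers), and the 5 genes most correlated with Mcpt1. Hrh2, Fcer1g, Itgb6, Gata2, Mitf, Srgn, Ano1, the interleukins, Mpo, Elane, Csf1r, Cd68, C1qa, Lpl, Mcpt8, Epx, Prg2, Xist and the Y-linked genes were named after their values were seen. So were S100a9, Ngp, Camp, Cxcr2, Adgre1, Apoa4, Fabp6, Fabp2 and Lct. Equal replicate numbers did not pair the arrays. Alternatives were other pseudocounts, filters, scalings and variance settings, a replicate block, and each array left out.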

Additional observations from a re-analysis of the deposited data

How the results depend on the processing

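Mcpt1 and Mcpt2 were called higher in all 15 alternatives, and no other mast cell probe set was called where it could be tested. The 8 probe sets below the filter had a p-value only in the fit without a filter. Cma1 and Cpa3 were tested in 14 and 11 of the alternatives. The log2 fold change of Mcpt1 ran from 2.12 to 3.06 and that of Mcpt2 from 1.61 to 2.15. Of 175 values of the 12 mast cell probe sets under the alternatives, 167 kept their call or moved by less than the spread between arrays, and 8 moved by more, all of probe sets below the filter. A change of filter, a replicate block or no variance trend leaves fold changes as they were by construction. Values of probe sets below the filter therefore could not move in those fits. The mucosal minus connective-tissue difference of 2.18 ran from 2.01 to 2.31 when 1 array was left out and was 1.89 with a pseudocount of 100, which by construction shrinks the change of dim probe sets. One Ms4a2 probe set had -0.09 with NHE3-/- array 3 alone, against 0.78 with all arrays.

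Over all tested probe sets, 1342 were higher and 1685 lower, and without a trend these counts were 511 and 558, with 1 in place of 2 lower genes in the list of other mast cell genes (Tpsg1, adjusted p = 0.0557), 0 in place of 4 in that of growth, homing and maturation, 1 in place of 4 among adipose markers, and 0 in place of 2 higher and 1 lower among colon epithelial markers. Setting the array medians equal gave 1595 higher and 738 lower, and quantile normalization gave 1337 higher and 1333 lower. These scalings moved the median log2 fold change of tested probe sets to 0.01 and -0.02, against -0.10 on the deposited scale. With NHE3-/- array 3 alone 752 were higher. Leaving out 1 array gave 820 to 1212 higher, with 820 without NHE3-/- array 3, and 765 to 1372 lower, with 765, 834, 837 and 1011 without NHE3+/+ array 3, NHE3-/- array 3, NHE3+/+ array 2 and NHE3-/- array 1. The cause was not tested.

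Arrays with the same replicate number did not deviate together (correlations of 0.03, -0.04 and 0.003 over tested probe sets). With the replicate number as a block, Mcpt1 had an adjusted p = 5.1e-05 and Mcpt2 an adjusted p = 0.000403, Tgfbr1 was no longer called (adjusted p = 0.0531), and the dimmer Slc9a3 probe set was called (log2 fold change 0.76, adjusted p = 0.0446). Signals near or under the filter limit what can be said of Mcpt4, Tpsb2, Ms4a2 and Hdc.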

Other observations

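The chymase and granzyme cluster of chromosome 14 was looked at gene by gene after the values of Mcpt1 and Mcpt2 had been seen. In the order of the RefSeq table it runs through Cma1, Cma2, Mcpt1, Mcpt2, Mcpt9, Mcpt4, Mcpt8, Ctsg and the granzyme genes Gzme, Gzmd, Gzmg, Gzmn, Gzmf, Gzmc and Gzmb, 15 protein-coding genes of which 13 were on the array. Of these, 4 passed the brightness filter, and 9 were below it and could not be called. Mcpt1 and Mcpt2, for which the cluster was chosen, were the 2 called higher, and 0 were lower. Of all tested probe sets 4.97% were called higher and 6.24% lower. Mcpt8, the basophil protease, gave 10.2, 18.8 and 11 in NHE3-/- colon, against 32, 9.5 and 53.1 in NHE3+/+ colon, and Ctsg, cathepsin G of neutrophils and some mast cells, gave 3, 12.8 and 67.4 in NHE3-/- colon, against 9.6, 7.5 and 12.1 in NHE3+/+ colon. At the far end Gzmb, granzyme B of cytotoxic lymphocytes, gave 323.5, 471.5 and 401 in NHE3-/- colon, against 400.7, 472.7 and 461.6 in NHE3+/+ colon (log2 fold change -0.16, SE 0.18; limma, adjusted p = 0.604).

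Ltc4s, the leukotriene C4 synthase of mast cells and other myeloid cells, was below the filter, at 19.9, 18 and 13.6 in NHE3-/- colon, against 64.8, 165.9 and 133.1 in NHE3+/+ colon. The groups did not overlap, as for 14.2% of all 45037 probe sets in that direction. Without a filter its log2 fold change of -1.59 was called (limma, adjusted p = 0.0328). It was singled out after its values were seen.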
